A study of Mus musculus with 2 samples.

Results

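The 94 crowded windows hold 1126 of the 6505 peaks that were listed for Flag-tagged Hes5 in mouse mesodermal derivatives of embryonic stem cells. A window is a fixed stretch of 1 Mb, and it was called crowded where 10 or more peak centres fell into it. Windows were laid from the first base of chromosomes 1 to 10 and 12 to 19 of the mouse build mm9. Chromosome 11, the X and Y chromosomes, the mitochondrial genome and the first 4 Mb of chromosome 9 were left out, which removed 515, 54 and 24 peaks for chromosome 11, for X, Y and the mitochondrial genome together, and for chromosome 9. Of the 5912 peaks that remained, 4786 lay in windows with fewer than 10 peaks and served for comparison. The windows were chosen by the number of peak centres they hold, so the crowding itself and the short distances that go with it are given as a description, with no test.

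Hes5 belongs to the basic helix-loop-helix family and represses transcription. It is one of the genes that Notch signalling switches on, and proteins of the Hes family recruit co-repressors of the Groucho/TLE family to the DNA they bind. In early mesoderm, Notch signalling is known to take part in the choice between blood and heart fates, and the title of the series places Hes5 in the turn towards the heart. A transcription factor's peaks are commonly uneven along chromosomes, because open chromatin and genes are uneven too.

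The study used the AinV/Bry-GFP embryonic stem cell line, which carries a green fluorescent reporter for Brachyury, a gene of early mesoderm. Both groups were Brachyury-positive cells, taken by sorting from day 3.75 embryoid bodies and then kept for 48 h in StemPro-34 medium. The group with doxycycline expressed Flag-Hes5, and the group without doxycycline was the control for the anti-Flag pulldown, with 1 chromatin immunoprecipitation library each. All values here belong to the library with doxycycline. The protein pulled down was the induced, tagged form in 1 cell line, so its level need not be that of the cells' own Hes5. Values of the control library were not analysed here, so signal that does not depend on Flag-Hes5 cannot be told apart from binding. A peak list shows no gene expression, so the cell type was not checked against its markers. With 1 library there is no spread between replicates, and no difference below was tested. Intervals cover counting error only and treat peaks as independent, which neighbouring peaks need not be.

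The crowded windows were the upper tail of a smooth distribution rather than a separate class (the plot of windows by number of peaks). They made up 5.96% of the 1577 windows with at least 1 peak, which is the background that the rule itself sets. The commonest crowded window was one at the threshold, with 38 windows of exactly 10 peaks and 19 windows of 11. Another 28 windows held 12 to 14 peaks, and 9 held 15 or more. Above 15 peaks the windows thinned out to single cases, of 18, 19, 20, 23 and 36 peaks. Just outside the threshold lay 43 windows of 9 peaks, whose 387 peaks had a median score of 244 and a median width of 412 bp. Just inside it, the 380 peaks of the windows of 10 had a median score of 234 and a median width of 399.5 bp. Peaks with another centre within 1 kb were 20.0% of those in the windows of 10 and 9.56% of those in the windows of 9. The windows of 9 were low among their neighbours, since this share was 15.9% over all windows of 7 to 9 peaks, 16.9% in those of 4 to 6 and 17.7% in those of 12 to 14.

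**Figure D1:**
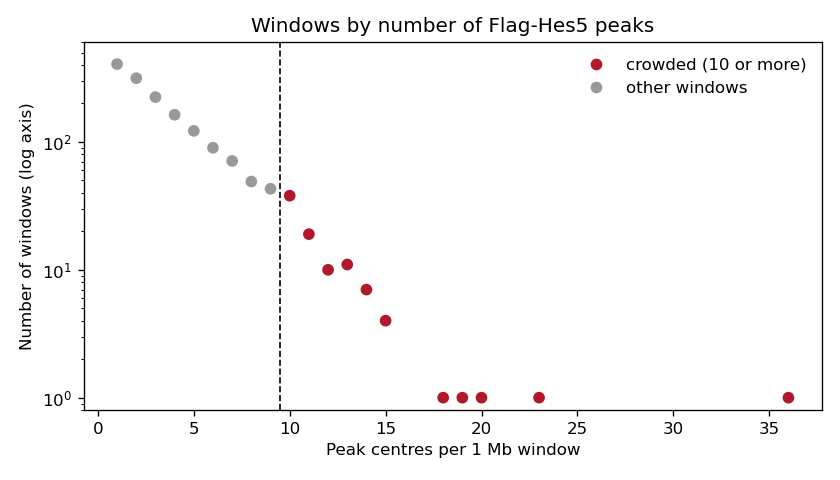
Number of 1 Mb windows (vertical axis, log scale) against the number of Flag-Hes5 peak centres they hold (horizontal axis), with each point a number of peaks and the dashed line the threshold of 10. The counts fall steadily from 406 windows with 1 peak to 38 with 10, and a single window with 36 peaks stands apart on the right.

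Every one of the 18 chromosomes had at least 1 crowded window, but their shares differed widely. Chromosome 17 had the highest share, with 104 peaks in 9 crowded windows, or 34.3% of its peaks. Chromosome 19 followed with 70 peaks in 5 windows, or 32.7%. Chromosome 6 had the most windows and peaks, with 124 peaks in 11 windows, or 28.3%. On these chromosomes crowding was thus common and took in several windows. On chromosome 19, however, 56 of the 70 peaks lay in 4 adjoining windows. At the other end, chromosomes 1, 3 and 14 had 1 crowded window each, of 10 peaks, which were 2.8%, 3.61% and 4.65% of their peaks. Over all 18 chromosomes the share was 19.0%.

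Some crowded windows lay side by side, while 59 of the 94 had no crowded window next to them. The other 35 windows formed 15 stretches of adjoining crowded windows, and these held 452 peaks on 11 chromosomes. How many would adjoin with windows placed at random was not computed. The longest stretch was at chr19:4000001-8000000, where 4 windows in a row held 56 peaks with a median score of 231. Stretches of 3 windows were found at chr17:27000001-30000000, with 37 peaks, at chr4:131000001-134000000, with 31 peaks, and at chr6:90000001-93000000, with 30 peaks. With centres within 1 kb merged, the windows on chromosome 17 kept 13, 11 and 10 centres. Those on chromosome 4 kept 10, 9 and 8, and those on chromosome 6 kept 7, 9 and 10. The stretches on chromosomes 4 and 6 thus rested on close centres counted singly. The median score was 285 in the stretch on chromosome 17, 224 in that on chromosome 4 and 175 in that on chromosome 6. No intervals were computed for medians of single stretches or windows. The stretch with the most peaks was a pair of windows at chr10:79000001-81000000, with 59 peaks and a median score of 292. The remaining 10 stretches were pairs of windows with 20 to 29 peaks. On chromosome 8 the pair from 86000001 to 88000000 had 29 peaks and a median score of 310, whereas the pair from 72000001 to 74000000 had 25 peaks and a median of 191. On chromosome 17 the pair from 34000001 to 36000000 had 26 peaks and a median score of 205. On chromosome 2 the pair from 167000001 to 169000000 was made up largely of close peaks, with 13 of its 23 peaks within 1 kb of another centre. Merging took a window of that pair below 10 centres, and likewise at chr2:29000001-31000000, chr12:111000001-113000000 and chr15:98000001-100000000. The pairs at chr16:17000001-19000000, with 23 peaks, and at chr10:126000001-128000000, with 22 peaks, had no peak within 1 kb of another.

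Crowding also reached beyond the window edges. The 136 windows that adjoined a crowded window without being crowded held 4.85 ± 2.95 peaks (SD over windows), against 2.02 ± 2.21 in the 2047 windows that did not adjoin one. Of the adjoining windows, 45, or 33.1%, held 7 to 9 peaks, against 118, or 5.76%, of the others. Windows without any peak were 6.62% of the adjoining windows and 33.8% of the others. The fixed grid thus cuts through broader peak-rich stretches, and where its lines fall decides in part which peaks count as crowded. With the grid moved by 0.5 Mb, 98 windows with 1218 peaks were crowded. Both grids placed 739 peaks in crowded windows, which is 65.6% of the peaks on the first grid and 60.7% of those on the moved grid.

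The 10 fullest windows held 190 peaks, or 16.9% of the peaks in crowded windows, on 7 chromosomes (the plot of peaks along these windows). Most of their peaks were of ordinary score, and 1 or a few strong peaks stood among them. The window at chr10:79000001-80000000 was the fullest, with 36 peaks over 945 kb, and its neighbour from 80000001 to 81000000 was next, with 23 peaks over 903 kb. In the first, centres were a median of 24.1 kb apart and the largest gap was 66.4 kb, so no part of the window was empty. The second had a median step of 33.5 kb and a largest gap of 129 kb. Merging centres within 1 kb of each other left 34 in the first and 20 in the second, so both stayed well above the threshold. Scores in the fullest window ran from 87.2 to 2183 with a median of 262, and 18 of its 36 peaks were at or above the median score of the whole list, 247.

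In the fullest window, the peaks scoring above 1000 lay in its left and right parts, with a run of weaker peaks between them. Its left part held strong peaks, among them one from 79166920 to 79167375 with a score of 1383 and one from 79229169 to 79229800 with a score of 1725. Then followed 10 peaks within 134 kb, from 79317240 to 79451579, with scores of 396 at most and a median of 159. A further 7 peaks lay between 79566701 and 79630890, with a median score of 246. Towards the right end stood a peak from 79727372 to 79728066 with a score of 1012, and then the strongest of the window, from 79861294 to 79862303, 1010 bp wide with a score of 2183. Its nearest neighbour, 11.5 kb away, scored 404. In the second window on chromosome 10, the scores ran from 113 to 967, and the strongest peak lay from 80217518 to 80218467. Near its left end, 3 peaks with scores of 375, 585 and 801 lay side by side from 80039173 to 80040901.

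**Figure D2:**
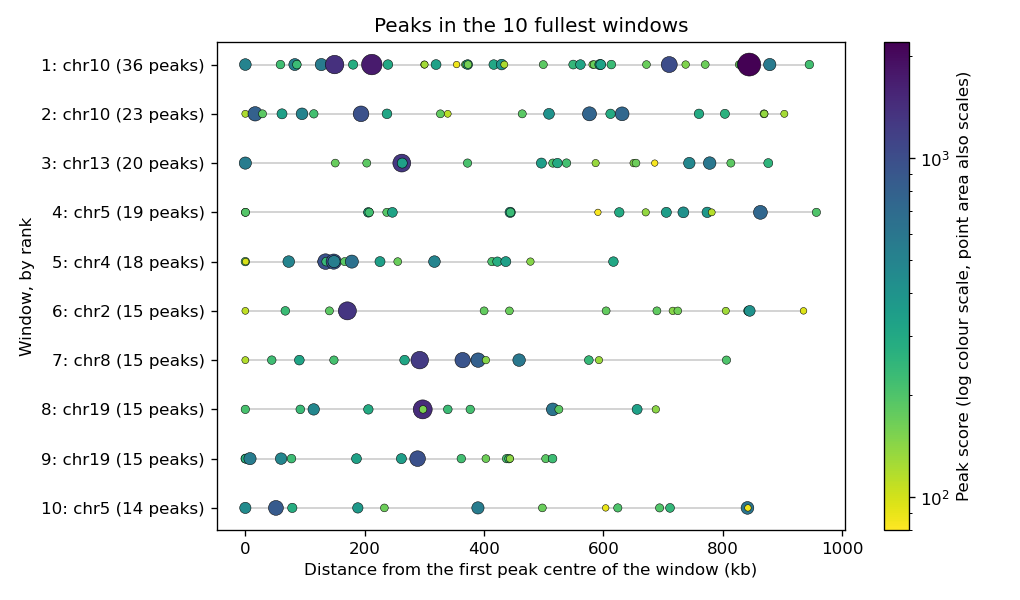
Peaks of the 10 fullest windows, 1 window per row in order of rank, with the distance of each peak centre from the first centre of its window (kb) on the horizontal axis and the score as colour and point area. The top row, with 36 peaks, is filled from end to end with 66.4 kb as its largest gap, and the strongest peak, of score 2183, sits near its right end.

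The other 8 of these windows varied in how their peaks were laid out. On chromosome 13 from 55000001 to 56000000, 20 peaks had a median score of 211, and the strongest, from 55312577 to 55313403 with a score of 1283, had another centre 0.757 kb away. On chromosome 5 from 115000001 to 116000000, 19 peaks had a median score of 219, and 8 of them lay within 1 kb of another, so merging left 15. Its strongest peak, from 115879915 to 115880719, scored 737. These 2 windows had moderate scores and close pairs. On chromosome 4 from 151000001 to 152000000, 18 peaks were packed into 617 kb with a median step of 17.8 kb, and up to 8 of them lay within 100 kb. Their median score was 293, and the strongest peak, from 151368956 to 151370365, was 1410 bp wide and scored 953. This was the tightest packing by median step among the 10.

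The windows of 15 peaks had unlike median scores and extents, with no interval computed for medians of so few peaks. On chromosome 2 from 152000001 to 153000000, the median score was 178, the lowest of the 10, and only 4 of 15 peaks reached the list's median, although the strongest, from 152223271 to 152223953, scored 1313. On chromosome 8 from 86000001 to 87000000, the median was 310, the highest of the 10, and the strongest peak, from 86423923 to 86425178, scored 1238. On chromosome 19 from 4000001 to 5000000, the median score was 228 and the strongest peak, from 4397080 to 4397641, scored 1463. Peaks scoring above 1000 thus occurred in windows of low and of high median score. In the window on chromosome 8 other peaks scored 928 and 803. On chromosome 19 from 7000001 to 8000000, all 15 peaks lay within 515 kb, with a median score of 227 and a strongest peak from 7342279 to 7343228 that scored 964. The window at chr5:122000001-123000000, with 14 peaks, had a median score of 223 and its strongest peak from 122161176 to 122162523, with a score of 859.

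Peaks in crowded windows lay close together, as the rule requires, but not mainly as tight knots. The median distance to the nearest centre was 23.2 kb, with quartiles of 3.18 and 57.0 kb, against 75.2 kb in the other windows. On each of the 18 chromosomes the median was shorter in the crowded windows. The class from 10 to 100 kb, much wider than the classes below it, held the most peaks. These were 646 peaks, or 57.4%, against 41.3% of all 5912 peaks. The share at 1 to 10 kb was 13.5% (152 peaks; exact 95% interval 11.6 to 15.6%), beside 7.8% of all peaks and 6.46% of those in other windows. The share within 1 kb was 19.6% (221 peaks; 17.3 to 22.1%), beside 14.7% of all peaks and 13.5% in other windows. Within 10 kb it came to 33.1% (373 peaks), beside 22.5% of all. Within 100 kb it came to 90.5% (1019 peaks), beside 63.8% of all, which left 107 peaks, or 9.5%, with no centre that near, beside 36.2% of all.

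The pairs within 1 kb were less tied to crowding when counted per step between neighbours in the same window. Of 1032 such steps in crowded windows, 117, or 11.3%, were within 1 kb, and of 3303 steps in other windows, 338, or 10.2%, were. Steps of 1 to 10 kb were 8.82% in crowded windows (91 steps) and 5.12% in other windows (169 steps). The close pairs were alike in size in both sets, with a median centre distance of 562.5 bp in crowded windows and 566 bp in others, and a median gap between their edges of 119 and 106 bp. The closest pair in a crowded window lay on chromosome 15, where a peak from 96540070 to 96540422 with a score of 229 and one from 96540426 to 96540677 with a score of 276 had centres 0.3055 kb apart. Of the 94 windows, 30 held no pair within 1 kb, and 66 still had 10 or more centres after such centres were merged. The other 28 windows passed the threshold only because close centres were counted singly.

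**Figure D3:**
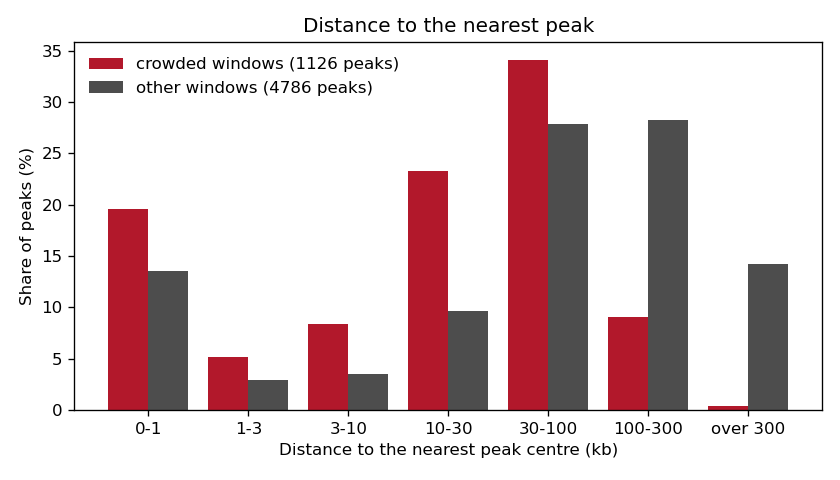
Share of peaks (%) by distance to the nearest peak centre (kb) in crowded windows (red, 1126 peaks) and other windows (grey, 4786 peaks). The red bars exceed the grey ones in every class up to 100 kb, with 19.6% against 13.5% within 1 kb, and fall below them beyond 100 kb.

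Longer chains of peaks were fewer than short ones, and chains in the other windows were not counted. With steps of at most 50 kb between neighbouring centres, 30 chains of 5 or more peaks held 186 of the 1126 peaks, 246 chains held 2 to 4 peaks, and 322 peaks had no other crowded-window peak within 50 kb. Only 2 chains reached 10 peaks. One was the group of weak peaks in the fullest window on chromosome 10, described above. The other lay at chr8:19876890-19986553 and had a median score of 85.6 and a highest score of 190. Chains of 9 peaks lay at chr2:179709938-179854462, with a median score of 257, and at chr4:151362734-151490741, with a median score of 343.

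Scores were a little lower in crowded windows than elsewhere. The score is the authors' value for each peak and its scale is not given in the sources used here, so it serves only to rank peaks within this list. The 1126 peaks in crowded windows had a median score of 231 (quartiles 170 and 378), against 254 (quartiles 180 and 412) in the other windows. The difference of medians was -22.6, with an interval of -39.2 to -1.41 from the exact 95% intervals of both medians. The quartile ranges overlapped over most of their length. Of the crowded-window peaks, 517, or 45.9%, reached the median score of the list, beside 50.1% of all 5912 peaks. High scores were about as frequent as elsewhere, since 42 peaks, or 3.73% (2.7 to 5.01%), scored above 1000, beside 3.89% of all. Scores under 100 were given to 41 peaks, or 3.64% (2.63 to 4.91%), beside 2.76% of all. Several of these 41 lay in a single window, at chr8:19000001-20000000, whose 11 peaks had a median score of 87.4. The share without that window was not computed, so the excess cannot be read as a trait of crowded windows. Of the 8 peaks at the highest score of the list, 3100, 2 lay in crowded windows, which is 0.178% of the crowded-window peaks beside 0.135% of all.

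By crowding class, the median score was 266 for peaks alone in their window, 250 with 2 or 3 peaks, 260 with 4 to 6 and 244 with 7 to 9. It was 228 in windows of 10 or 11 peaks, 235 in those of 12 to 14 and 233 in those of 15 to 36 (the plot of score by class). The medians of the 3 crowded classes were all below those of the 4 other classes. There was no steady fall within the crowded range. The exact intervals of the 3 crowded medians were 214 to 246, 219 to 251 and 215.5 to 293, in the same order. Each overlapped the interval of windows with 7 to 9 peaks, 235 to 254, so the medians show no clear break at the threshold. The share of scores above 1000 did not follow the order of the medians. It was 2.55%, 5.26% and 4.55% in the 3 crowded classes and 3.2%, 4.84%, 4.05% and 3.06% in the others.

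**Figure D4:**
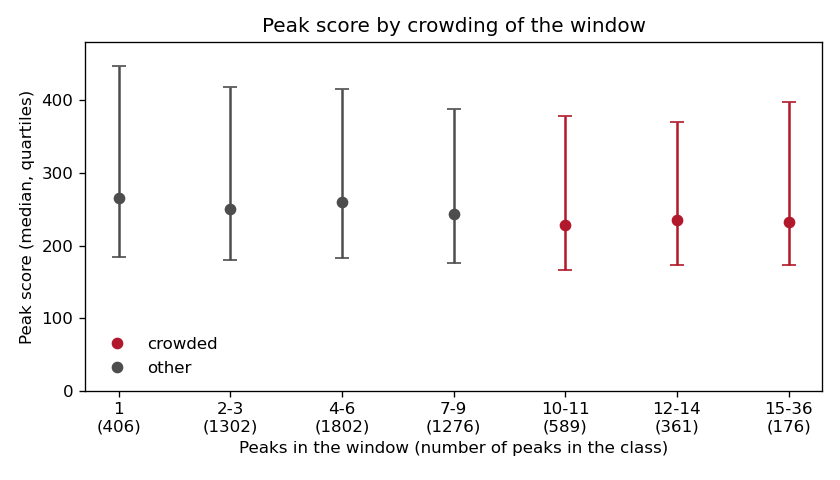
Peak score (points, medians, with bars to the quartiles) by the number of peaks in the window, with the number of peaks in each class in brackets. The medians of the 3 crowded classes (red) lie at 228 to 235 and those of the other classes (grey) at 244 to 266, while the quartile bars overlap throughout.

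The lower score was not shared by all chromosomes or all windows. The median was lower in crowded windows on 12 of 18 chromosomes and higher on 6 (the plot of medians by chromosome). Chromosome 15 had the largest drop, with a median of 228 in 76 crowded-window peaks against 286 in its other 195. Chromosome 6 had the lowest crowded median, 188 in 124 peaks, against 232 in its other 314. Chromosome 10 went the other way, with 290 in 91 crowded-window peaks against 231 in its other 258. The other chromosomes with a higher median were chromosomes 1, 3, 4, 12 and 18, of which chromosomes 1 and 3 had 10 crowded-window peaks each. By window, 62 of the 94 medians lay below the median of 254 of the peaks in other windows and 32 at or above it. That is 66.0% of the crowded windows, beside 47.6% of all 1577 windows and 55.8% of the 163 windows of 7 to 9 peaks. Medians over few peaks scatter more than medians over 10 or more, so these shares are not on equal terms.

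**Figure D5:**
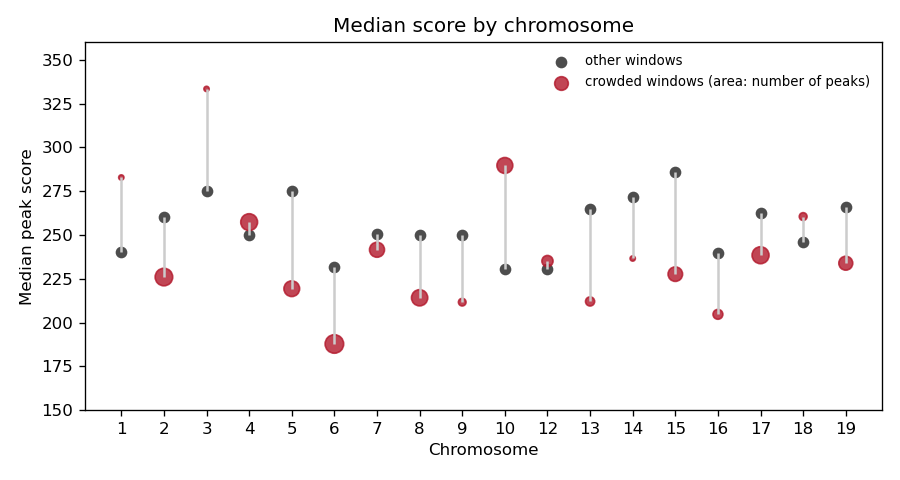
Median peak score of crowded windows (red, point area by number of peaks) and of other windows (grey) for each of the 18 chromosomes, with the vertical axis starting at 150. The red point lies below the grey one on 12 chromosomes, and chromosome 10, at 290 against 231, is among the 6 where it lies above.

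Window medians ran from 87.4 to 531, with quartiles of 211 and 277. The windows named here for their extreme medians were chosen after their values were seen. The highest median, 531, belonged to 10 peaks at chr2:156000001-157000000, which were also wide, with a median width of 644 bp. The next, 465, belonged to 10 peaks at chr9:21000001-22000000, with a median width of 530 bp. Both windows reached these medians without a peak near the highest scores, their strongest peaks scoring 957 and 1108.

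The lowest median, 87.4, stood apart from the next lowest, 148 at chr6:113000001-114000000. It belonged to the window at chr8:19000001-20000000, whose 11 peaks lay within 279 kb and scored 52.3 to 190. None of them reached the list's median score. Among them was the lowest score in the whole list, 52.3, for the peak from 19986167 to 19986553. Its 10 peaks from 19876890 to 19986553 formed the chain given above. Whether this window holds repeated sequence was not tested. Without it the difference of median scores between crowded and other windows was -19.8 in place of -22.6.

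The strongest peaks in crowded windows were spread over many windows. Of the 94 windows, 32, or 34.0%, held at least 1 peak with a score above 1000, beside 13.1% of all 1577 windows and 20.9% of those with 7 to 9 peaks. A window with more peaks has more chances to hold a strong one, and per peak the share was the 3.73% given above, beside 3.89% of all. The 2 peaks with the list's highest score were those at chr7:134397122-134398107 and at chr6:86476371-86477348. The first had its nearest neighbour 20.9 kb away, and the second had one at 0.892 kb. After them came a peak at chr17:35137858-35138622 with a score of 2221, whose nearest centre was 103 kb away. A second strong peak in the same window as the first of these, at chr7:134169320-134171198, scored 1987 and was the widest of all crowded-window peaks at 1879 bp. That window, from 134000001 to 135000000, held 13 peaks with a median score of 350 and no pair within 10 kb. High scores therefore occurred in crowded windows with and without a close neighbour.

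Width differed less than score. The median width was 401.5 bp in crowded windows (quartiles 342 and 527) and 411 bp in others (quartiles 341 and 547), a difference of -9.5 bp with an interval of -22 to 0 bp. It was lower in crowded windows on 9 chromosomes and higher on 9. Peaks wider than 1000 bp were 2.22% of those in crowded windows (25 peaks), beside 2.33% of all. The narrowest crowded-window peak, of 167 bp at chr4:131909351-131909517, nevertheless scored 469. Score and width rose together in both sets, with a Spearman's rho of 0.49 across the 1126 peaks and 0.53 across the 4786 others. Both values come from the same pulled-down reads of 1 library, and peaks are not independent replicates.

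Within crowded windows the score did not rise or fall steadily with the distance to the next peak. The median score was 241 for the 221 peaks with a centre within 1 kb, 222 for the 152 with one at 1 to 10 kb, 235 for the 646 with one at 10 to 100 kb and 205 for the 107 with none within 100 kb. In other windows these medians were 250, 255, 249 and 258. The medians in crowded windows were lower in each of the 4 classes. Scores of neighbouring peaks were close to unrelated. Over 915 steps of more than 1 kb between neighbours in a crowded window, Spearman's rho of their scores was 0.0022, and over the 117 steps within 1 kb it was 0.066. Other windows were alike in this, with 0.030 over 2965 steps of more than 1 kb and 0.075 over 338 steps within 1 kb.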

How the data were processed

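Anti-Flag chromatin immunoprecipitation was sequenced from 1 library with and 1 without doxycycline, grouped by their titles, and the deposited peak list of the first was used. Per the submitters' processing notes, Bowtie 1.0, HOMER and mm9 were used, in roles they do not give. The deposited score of each peak is the authors' value from a caller whose names begin with MACS. Its scale, the caller's settings and any use of the control were not given in the sources used here. The deposited positions have 0-based starts, printed here 1-based. The list holds no counts, so depth is unknown.

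Each centre is the midpoint of start and end. Distances are between centres of eligible peaks. Intervals of shares are exact Clopper-Pearson intervals at 95%, those of medians exact order-statistic intervals, and that of a difference joins the outer bounds of both. No test was made, with 1 library. The windows described are the 10 fullest, with ties by chromosome and start, each with its strongest peak, plus all adjoining crowded windows and the extreme peaks. The members and alternatives were chosen with earlier results of these data known. The gene tables at hand are for GRCm38, so no gene, motif or sequence was assigned and those planned parts were not run. The window search was run on simulated data as a check of the code only, since no simulated window was set near the threshold of 10. Alternatives were other grids, thresholds, merged centres, a stricter score and left-out chromosomes. Tools were Python 3.11.15 with numpy 2.4.6, pandas 2.3.3, scipy 1.17.1 and matplotlib 3.10.9.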

Additional observations from a re-analysis of the deposited data

How the results depend on the processing

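The number of crowded windows and of their peaks follows the threshold. With 8 or more centres there were 186 windows and 1905 peaks, and with 12 or more 37 windows and 537 peaks. With only scores at or above the list's median, 4 windows with 52 peaks held 10 or more, by construction of a shorter list. The moved grid gave 98 windows, and merging centres within 1 kb gave 66 windows with 780 merged centres. The score difference of -22.6 kept its direction in all alternatives for which it was computed. It was not computed with merged centres or with the stricter score. It was -17.0 on the moved grid, -17.6 and -15.5 with thresholds of 8 and 12, -26.0 without peaks that had a centre within 1 kb, -33.3 as the median of within-chromosome differences and -22.1 against other windows with 4 or more peaks. As a difference between medians of window medians it was -37.1, and with each chromosome left out it ran from -26.4, without chromosome 10, to -18.9, without chromosome 5. The width difference ran from -20.5 bp, over window medians, to -3 bp, with a threshold of 12. The comparisons over window medians, against windows with 4 or more peaks, without the weakest window and without single chromosomes were chosen after seeing the data. No alternative for gene starts or motifs was run. No paired analysis was possible because there was 1 library per condition. With an unknown depth, weaker sites that went unlisted cannot be judged.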
